A study of Mus musculus with 24 samples.

Results

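Collagen genes were followed through RNA sequencing of mouse embryonic fibroblasts. They were taken as every protein-coding gene of the count table whose symbol is Col, a number, a and a number, which gave 44 of 45706 gene identifiers. Of these, 11 encode fibrillar collagens, 9 network-forming collagens, 9 FACIT collagens (fibril-associated collagens with interrupted helices) and 15 other collagens. A gene was reported when at least 10 counts were present in 3 or more of the 24 libraries, which kept 42. Just inside this limit was Col6a6, with 10 counts in 6 libraries and a highest count of 19, and just outside it was Col26a1, with 10 counts in 1 library and a highest count of 12. Col13a1, a transmembrane collagen, never exceeded 3 counts. All 42 reported genes entered the tests, 11 fibrillar, 9 network, 9 FACIT and 13 other.

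Collagens are secreted proteins whose chains carry long repeats of glycine and other residues, many of them proline, and wind around one another into a rod-like helix. Fibrillar collagens assemble into the cross-linked fibrils that give connective tissue its strength, FACIT collagens sit on the surface of these fibrils, type IV chains build the sheet of basement membranes, and type VI chains form beaded filaments around cells. Prolyl and lysyl hydroxylases modify the chains in the endoplasmic reticulum, several of them are well-known targets of hypoxia-inducible factors, and the Vhl protein marks the alpha subunits of those factors for breakdown.

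The libraries came from E13.5 mouse embryos and fall into 8 groups of 3. Cells were wild type (WT) or are named for Vhl, for Rassf1a or for both (Vhl/Rassf1a), and in each of the 4 genotypes 3 libraries are labelled Cre, the knockout, and 3 GFP, the control. How Cre and GFP reached the cells, which promoter drove them, which exons were altered and how many embryos or cultures were used are not stated in the labels, so the p-values may measure technical spread alone. A design note names kidney tubule epithelium instead of fibroblasts, and the sample labels were followed. Total RNA of whole cultures was sequenced, so fewer cells of a type and less RNA per cell cannot be told apart.

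Library totals ran from 29934173 to 55849586 counts. Levels are given as CPM, counts scaled by the size of the library. Vhl was at 2.34 to 2.85 CPM in Vhl Cre and at 1.77 to 2.70 CPM in Vhl/Rassf1a Cre libraries, against 20.8 to 29.1 CPM in the other 18 libraries. Rassf1 was at 25.2 to 27.5 CPM in Rassf1a Cre and at 25.8 to 31.2 CPM in Rassf1a GFP libraries. In Vhl/Rassf1a cells it was higher with Cre, at 42.8 to 46.9 CPM against 30.1 to 37.2 CPM with GFP. The same held in Vhl cells, at 42.6 to 44.6 CPM against 24.0 to 29.0 CPM. Counts are per gene and cover every Rassf1 isoform, so they do not check the label. Replicate 1 of Rassf1a GFP and replicate 2 of Vhl/Rassf1a GFP stood apart from their groups in earlier results of these data, and results that rest on them are given with and without them. Of the 12 fibroblast markers all 12 passed the filter, and their summed level was between 19896 and 30832 CPM in every library. The 42 collagen genes had a median GC content of 53.6%, against 50.0% over all genes tested.

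Many exons of collagen genes encode whole Gly-X-Y repeats, whose codons span 9 bases. In the transcript with the longest coding sequence of each of the 44 genes, 1224 of 1917 inner coding exons (63.8%) had a length divisible by 9, against 14.3% of 157970 inner coding exons over all protein-coding genes of the table. The share was 83.9% in the fibrillar genes, 47.2% in the network genes, 55.1% in the FACIT genes and 56.8% in the other genes. Exons of exactly 54 bases made up 48.6% of the inner coding exons of fibrillar genes, against 0.736% over all protein-coding genes. The count of coding exons ran from 2 in Col8a1, Col8a2 and Col10a1 to 118 in Col7a1, whose product forms the anchoring fibrils under epithelium.

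Levels were compared between genes per length, as RPKM, that is CPM per kilobase of transcript. Type I collagen, the main protein of fibrils in most connective tissue, led: Col1a1 averaged 2318 RPKM and Col1a2 1536 RPKM over the 24 libraries. Next came the other chains of such fibrils, Col5a2 (455 RPKM), Col5a1 (413 RPKM) and Col3a1 (387 RPKM). Over all libraries Col3a1 ran from 264 to 575 RPKM, Col5a1 from 335 to 499 RPKM and Col5a2 from 381 to 544 RPKM. These overlapping ranges mix the 8 groups and do not compare the genes within a library. In the network class Col4a1 (338 RPKM) and Col4a2 (239 RPKM), the chains of the common basement membrane network, were highest, followed by Col8a1 (149 RPKM), a short-chain collagen. Col12a1, which decorates type I fibrils, led the FACIT genes at 330 RPKM, before Col16a1 (56.0 RPKM) and Col14a1 (2.17 RPKM). The beaded-filament chains Col6a1 (229 RPKM), Col6a3 (150 RPKM) and Col6a2 (149 RPKM) led the remaining class. The lowest reported genes were Col6a6 (0.0180 RPKM), Col6a5 (0.0262 RPKM) and Col22a1 (0.0471 RPKM).

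**Figure D1:**
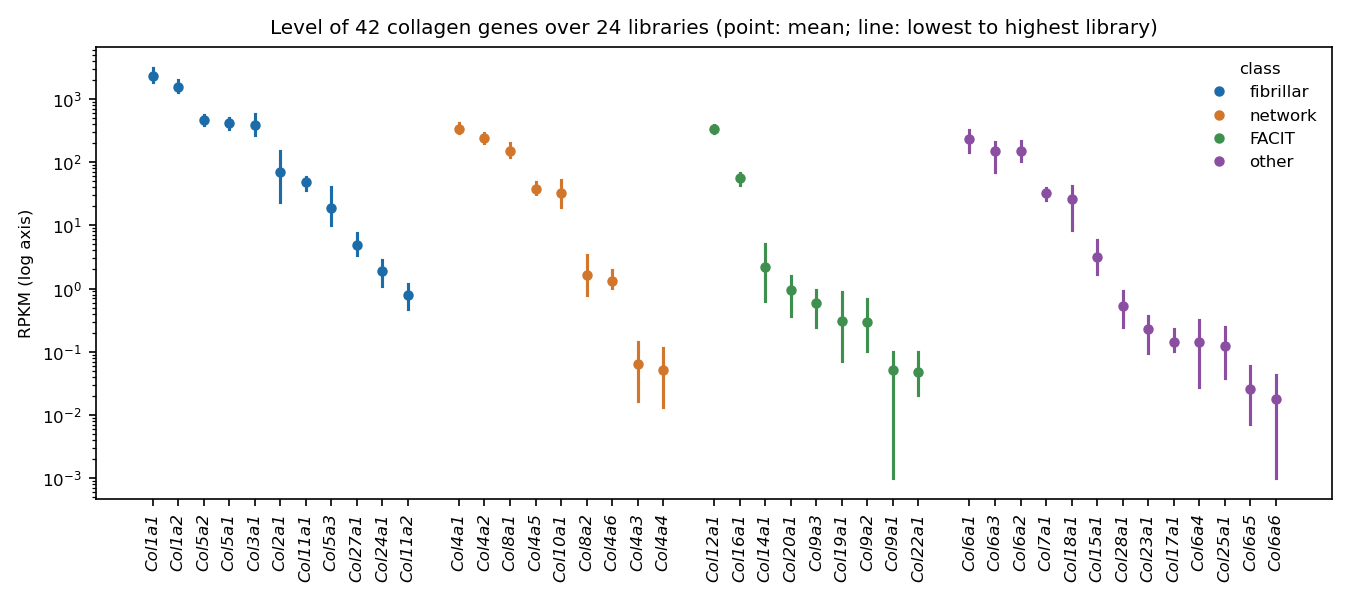
Level of the 42 reported collagen genes in RPKM on a log axis, ordered within each class, with the mean of 24 libraries as a point and a line from the lowest to the highest library (a library at 0 is drawn at the bottom of the axis). Col1a1 (2318 RPKM) and Col1a2 (1536 RPKM) stand highest, and each class spans several orders of magnitude.

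Counts of the 44 genes together made up 3.92% of all counts in WT GFP (SD 0.137, n = 3), 4.19% in WT Cre (SD 0.187), 4.92% in Vhl GFP (SD 0.0935) and 4.04% in Vhl Cre (SD 0.153). In Rassf1a GFP and Cre they made up 4.98% (SD 0.375) and 4.97% (SD 0.0690), and in Vhl/Rassf1a GFP and Cre 4.20% (SD 0.465) and 3.97% (SD 0.118). The 2 GFP libraries that stood apart raised the GFP means of their groups. Rassf1a GFP replicate 1 was at 5.41%, with replicates 2 and 3 at 4.76% and 4.78%. Vhl/Rassf1a GFP replicate 2 was at 4.73%, with replicates 1 and 3 at 3.86% and 4.01%. The Vhl GFP libraries, at 4.85 to 5.03%, all lay above the Vhl Cre libraries, at 3.89 to 4.19%, while the Cre and GFP libraries of Vhl/Rassf1a overlapped. Type I chains alone held between 48.9% and 52.1% of collagen counts in the group means.

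Cre was then set against GFP within each genotype, with values given as log2 fold changes of Cre over GFP and their standard error (SE). In Vhl cells the type VI, type XV and type XVIII chains and the type I and III fibrillar chains were lower with Cre, and the less common type IV chains were higher. Of the 42 genes, 16 fell and 9 rose, where 18.7% of all 16573 genes tested fell and 17.4% rose (36.1% in either direction). The median over the 42 genes was -0.12, against -0.01 over all genes. By class, 7 of 13 other genes fell and 1 rose (median -0.61), 4 of 11 fibrillar genes fell and 2 rose (median -0.00), 3 of 9 network genes fell and 4 rose (median -0.05), and 2 of 9 FACIT genes fell and 2 rose (median -0.01). In each of these 25 genes the Cre libraries did not overlap the GFP libraries. The genes were chosen by the test on these same libraries, so this adds no support to the calls.

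**Figure D2:**
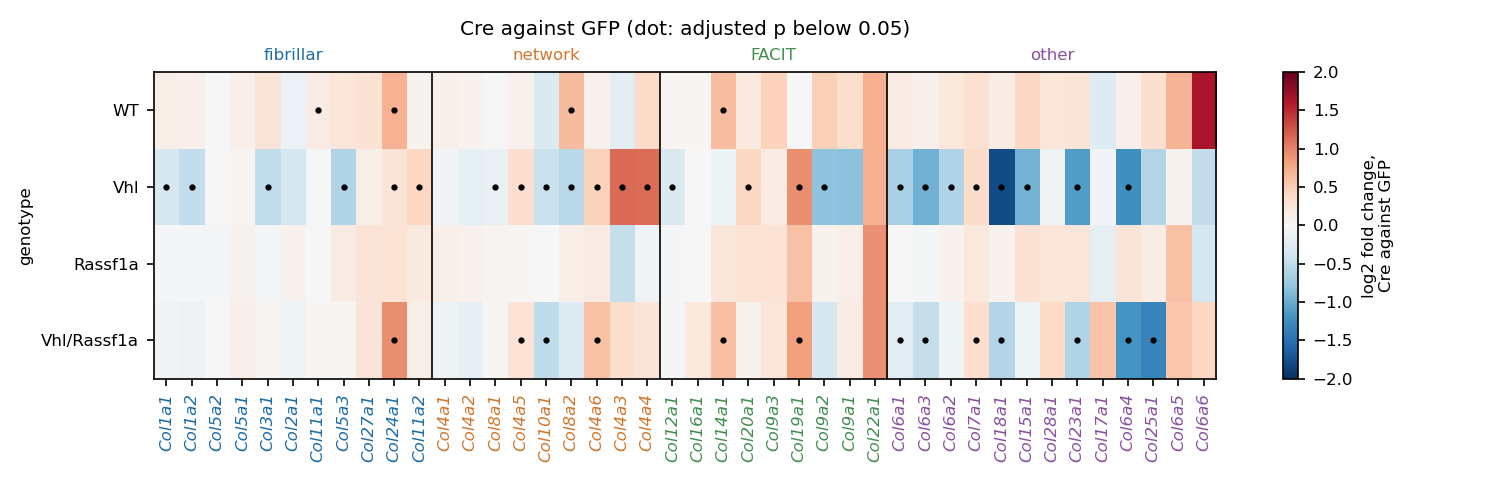
Log2 fold change of Cre against GFP (colour) for each collagen gene (columns, by class and falling level) in each genotype (rows), with a dot where the adjusted p was below 0.05. The Vhl row holds 25 dots, the Vhl/Rassf1a row 13, the WT row 4 and the Rassf1a row none.

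Col18a1 showed the lowest Cre effect. It encodes a basement membrane collagen with glycosaminoglycan chains whose end is cut off as endostatin (ENSMUSG00000001435, GRCm38 chromosome 10, 77052178 to 77166548, minus strand). It was at 210, 138 and 170 CPM in the Vhl GFP libraries and at 46.8, 49.7 and 52.5 CPM with Cre. Every Cre library was thus below every library of the other 7 groups, the lowest of which was at 97.3 CPM. The log2 fold change was -1.80 (SE 0.12, adjusted p = 7.86e-11), so that the level fell by 71.2%. Slc19a1, a folate transporter gene on the opposite strand, overlaps Col18a1 by 8825 bases and averaged 18.4 CPM, and the counting is not stated to use strand.

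Col15a1, the close relative of Col18a1 (ENSMUSG00000028339), was at 21.2, 16.0 and 18.5 CPM in Vhl GFP and at 9.89, 9.26 and 9.70 CPM in Vhl Cre libraries (log2 fold change -0.95, SE 0.11, adjusted p = 2.35e-07). Its WT GFP libraries lay at 8.84 to 11.1 CPM, so the Vhl Cre values were within the WT range and the Vhl GFP values above it.

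The 3 abundant type VI chains fell together. Col6a3 (ENSMUSG00000048126, chromosome 1, 90765923 to 90843971, minus strand) was at 1708, 1240 and 1302 CPM with GFP and at 734, 708 and 738 CPM with Cre (log2 fold change -0.96, SE 0.08, adjusted p = 2.58e-09). Col6a1 (ENSMUSG00000001119) went from 1085, 899 and 951 CPM to 595, 620 and 652 CPM (-0.65, SE 0.07, adjusted p = 8.51e-08). Col6a2 (ENSMUSG00000020241) went from 730, 582 and 604 CPM to 404, 416 and 439 CPM (-0.61, SE 0.08, adjusted p = 2.92e-06). Vhl GFP replicate 1 was the highest library of its group for all 3 chains and for Col18a1, and no call was lost without it. Col6a1 and Col6a2 lie on one strand of chromosome 10 with 85.2 kb between them, and the nearest ends of Col6a1 and Col18a1 are 326.0 kb apart, on the same strand.

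Of the scarce type VI chains, Col6a4 fell from 1.60 to 2.14 CPM to between 0.633 and 0.913 CPM (-1.23, SE 0.17, adjusted p = 5.74e-06). Col6a5 and Col6a6 stayed at or below 0.258 CPM in all 6 libraries and were not called. Col23a1, a transmembrane collagen, fell from 1.06 to 2.09 CPM to between 0.533 and 0.806 CPM (-1.11, SE 0.23, adjusted p = 0.000565).

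Fibrillar chains did not move alike. Col1a2 (ENSMUSG00000029661, chromosome 6, 4504814 to 4541544, plus strand) was at 9813, 9750 and 10436 CPM in Vhl GFP and at 6739, 7215 and 7265 CPM in Vhl Cre (log2 fold change -0.50, SE 0.06, adjusted p = 1.31e-06). Col1a1 (ENSMUSG00000001506, chromosome 11, 94936224 to 94953042, plus strand) was at 15637, 15694 and 16540 CPM and at 12045, 12540 and 13804 CPM (-0.32, SE 0.11, adjusted p = 0.0260). Col3a1, which joins type I in mixed fibrils, was at 2312, 2140 and 2394 CPM and at 1551, 1686 and 1644 CPM (-0.49, SE 0.07, adjusted p = 8.32e-06). The Cre libraries were the lower ones in all of these genes. The call of Col1a1 was lost without Vhl Cre replicate 1 (-0.27, adjusted p = 0.0921), Vhl Cre replicate 2 (-0.30, adjusted p = 0.0669) or Vhl GFP replicate 3 (-0.30, adjusted p = 0.0728).

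The type V chains Col5a1 and Col5a2, which start and limit the width of type I fibrils, were not called. Col5a2 (ENSMUSG00000026042) was at 3192, 3298 and 3605 CPM with GFP and at 3239, 3558 and 3397 CPM with Cre, so the groups overlapped (log2 fold change 0.01, 95% interval -0.10 to 0.13, adjusted p = 0.873). Col5a1 had a fold change of 0.04 (95% interval -0.13 to 0.22, adjusted p = 0.746) and Col11a1 one of -0.00 (-0.08 to 0.07, adjusted p = 0.974). The third type V chain, Col5a3, fell from 88.3 to 114 CPM to between 65.7 and 70.4 CPM (-0.60, SE 0.11, adjusted p = 0.000146). Col3a1 and Col5a2 are neighbours on chromosome 1, tail to tail with 24.6 kb between them.

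The network class moved both ways. Col4a1 and Col4a2, which overlap head to head by 22 bases on chromosome 8, were not called, with fold changes of -0.05 (SE 0.09) and -0.18 (SE 0.10). Their libraries lay at 2043, 2154 and 2158 CPM (GFP) and 1884, 2130 and 2103 CPM (Cre) for Col4a1, and at 1495, 1594 and 1591 CPM and 1281, 1430 and 1434 CPM for Col4a2. The Col4a2 groups did not overlap, and 4 of the alternative settings, among them the fit of Vhl libraries alone (-0.17, adjusted p = 0.00937), put it past the threshold. The other head-to-head pairs rose. Col4a5 (ENSMUSG00000031274, chromosome X, 141475385 to 141689234, plus strand), whose loss causes Alport kidney disease, was at 235, 250 and 245 CPM with GFP and at 295, 320 and 309 CPM with Cre (0.34, SE 0.05, adjusted p = 1.29e-05).

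Col4a6 (ENSMUSG00000031273, chromosome X, 141165403 to 141474076, minus strand), whose start lies 1308 bases from that of Col4a5, was at 8.59, 8.56 and 9.41 CPM with GFP and at 12.0, 12.9 and 11.8 CPM with Cre (0.46, SE 0.08, adjusted p = 9.08e-05). Col4a3 and Col4a4, with 71 bases between them on chromosome 1, were near the limit of detection. Col4a3 went from 0.290, 0.595 and 0.634 CPM to 1.01, 1.15 and 1.24 CPM (1.13, SE 0.28, adjusted p = 0.00281), and Col4a4 from 0.348, 0.672 and 0.422 CPM to 1.17, 1.03 and 0.949 CPM (1.12, SE 0.26, adjusted p = 0.00133). In both genes the 3 Cre libraries were above the 3 GFP libraries. The X-linked Xist fell in the same comparison (262 to 171 CPM, -0.62, SE 0.18, adjusted p = 0.00998) and the Y-linked Ddx3y rose (41.0 to 58.2 CPM, 0.51, SE 0.12, adjusted p = 0.00143), and the part of such a shift in the values of the X-linked Col4a5 and Col4a6 was not tested.

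Of the short-chain network collagens, Col8a2 fell from 11.9 to 14.6 CPM to between 8.34 and 9.44 CPM (-0.56, SE 0.12, adjusted p = 0.000576) and Col10a1, the collagen of hypertrophic cartilage, from 132 to 165 CPM to between 109 and 118 CPM (-0.44, SE 0.07, adjusted p = 4.45e-05). Col8a1 was at 987, 1002 and 1039 CPM with GFP and at 915, 923 and 903 CPM with Cre (-0.14, SE 0.05, adjusted p = 0.0179). That small shift missed the threshold in 5 of the 6 fits without 1 library (adjusted p from 0.0530 to 0.0865). Col10a1 lies wholly within Nt5dc1, which is on the opposite strand and averaged 7.95 CPM.

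Among FACIT collagens, Col12a1 (ENSMUSG00000032332) was at 4204, 4360 and 4350 CPM in Vhl GFP and at 3508, 3528 and 3516 CPM in Vhl Cre (log2 fold change -0.29, SE 0.04, adjusted p = 1.86e-06). Col16a1, which was at 300, 309 and 338 CPM with GFP and at 288, 319 and 334 CPM with Cre, was not called (-0.01, SE 0.10). Col14a1, at 30.2 to 32.5 and 27.7 to 31.1 CPM, was not called either (-0.09, SE 0.10). Col19a1 rose from 1.45, 2.12 and 1.45 CPM to 3.07, 2.81 and 3.80 CPM (0.94, SE 0.18, adjusted p = 0.000263), and Col9a2, a chain of the cartilage collagen type IX, fell from 1.80 to 1.99 CPM to between 0.989 and 1.29 CPM (-0.81, SE 0.19, adjusted p = 0.00150).

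Smaller rises were seen for Col7a1 (0.37, SE 0.11, adjusted p = 0.00820), Col11a2 (0.41, SE 0.16, adjusted p = 0.0434), Col20a1 (0.41, SE 0.10, adjusted p = 0.00347) and the fibrillar Col24a1 (0.25, SE 0.10, adjusted p = 0.0435). Col11a2 went from 3.98, 5.48 and 4.27 CPM to 5.96, 5.89 and 6.44 CPM, and Col20a1 from 3.89, 5.01 and 4.01 CPM to 5.63, 5.64 and 5.90 CPM. The Cre libraries were the higher ones in both. The calls of Col11a2 and Col24a1 were lost in 5 of the 6 fits without 1 library, with adjusted p-values of 0.0523 to 0.163, and the call of Col7a1 without Vhl GFP replicate 1 (0.29, adjusted p = 0.0544). Col20a1 shares 741 bases with BX649560.1, which averaged 17.4 CPM against 4.32 CPM for Col20a1, so its value is uncertain.

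**Figure D3:**
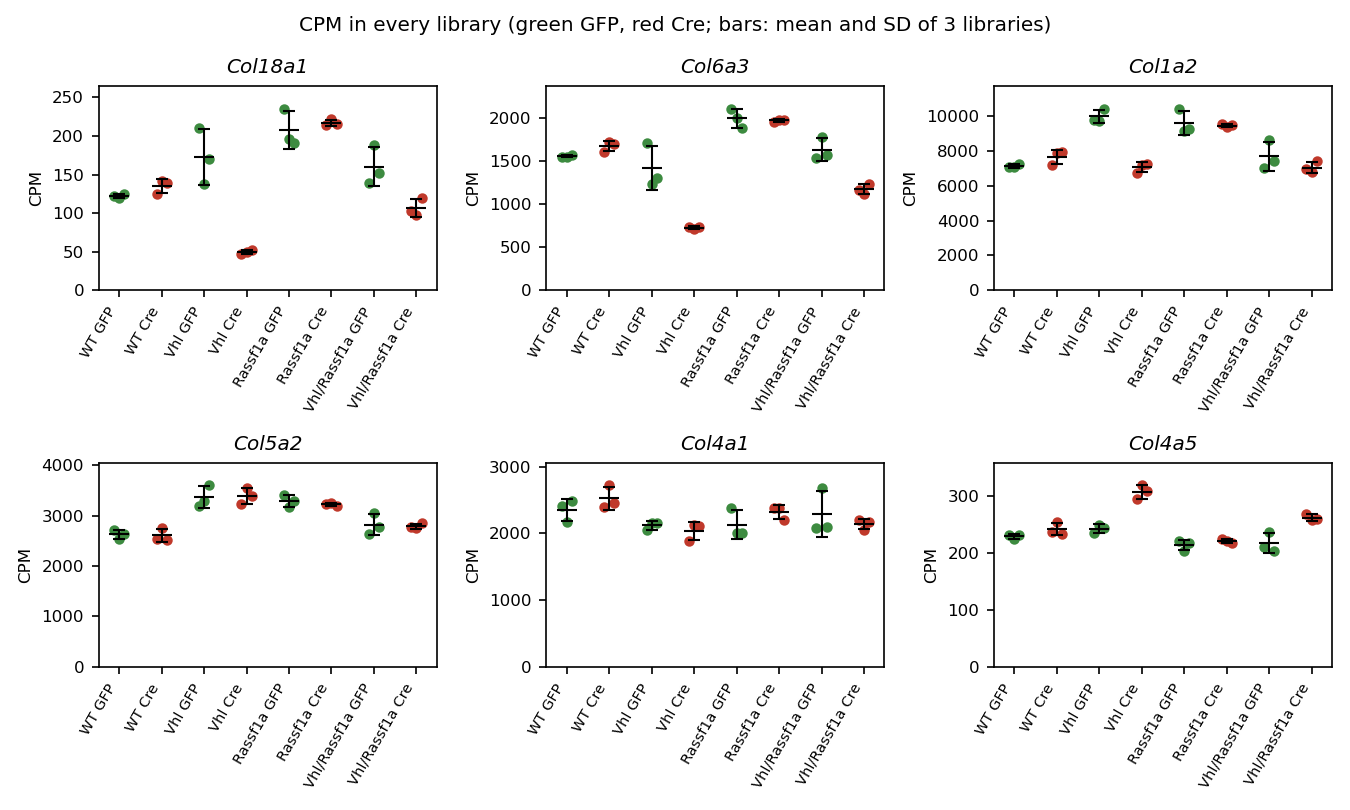
CPM of 6 collagen genes in every library of the 8 groups, with the mean and SD of 3 libraries (green GFP, red Cre; each axis starts at 0). Col18a1 and Col6a3 are lowest in the Vhl Cre libraries, at 46.8 to 52.5 and 708 to 738 CPM, Col4a5 is highest there, at 295 to 320 CPM, and Col5a2 and Col4a1 overlap between Vhl Cre and Vhl GFP.

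The promoter windows of 5 genes that moved in Vhl cells are shown, Col18a1, Col6a3 and Col3a1 as genes that fell and Col4a5 and Col4a6 as a head-to-head pair that rose. The sequences are from RefSeq (GRCm38.p6), read 5′ to 3′ on the strand of the gene, and cover up to 250 bases before the start without exonic bases. Capitals mark the motifs searched, on both strands: the core ACGTG and its near relative GCGTG, which hypoxia-inducible factors bind, the CCAAT box, the GC box GGGCGG, and the TATA box as TATAAA. Their positions are chr10:77166549-77166780, chr1:90843972-90844221, chr1:45311288-45311537, chrX:141475169-141475384 and chrX:141474077-141474326, in the order given here.
Col18a1: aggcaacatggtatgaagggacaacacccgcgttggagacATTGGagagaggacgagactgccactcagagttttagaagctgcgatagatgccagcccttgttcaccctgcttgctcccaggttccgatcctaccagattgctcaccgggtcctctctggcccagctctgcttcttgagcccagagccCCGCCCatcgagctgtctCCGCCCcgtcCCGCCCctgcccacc
Col6a3: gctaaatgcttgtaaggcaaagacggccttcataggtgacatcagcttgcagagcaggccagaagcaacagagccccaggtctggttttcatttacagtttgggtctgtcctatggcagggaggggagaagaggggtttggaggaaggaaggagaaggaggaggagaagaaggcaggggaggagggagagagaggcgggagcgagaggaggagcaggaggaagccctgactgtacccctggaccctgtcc
Col3a1: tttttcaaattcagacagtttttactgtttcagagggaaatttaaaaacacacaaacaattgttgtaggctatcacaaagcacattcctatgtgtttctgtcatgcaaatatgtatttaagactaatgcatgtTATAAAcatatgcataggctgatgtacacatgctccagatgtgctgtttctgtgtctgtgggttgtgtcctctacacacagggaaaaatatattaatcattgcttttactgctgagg
Col4a5: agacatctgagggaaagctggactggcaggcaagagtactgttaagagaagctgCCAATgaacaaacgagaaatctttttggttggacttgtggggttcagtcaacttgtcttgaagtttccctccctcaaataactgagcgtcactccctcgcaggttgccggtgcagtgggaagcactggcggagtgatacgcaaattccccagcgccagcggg
Col4a6: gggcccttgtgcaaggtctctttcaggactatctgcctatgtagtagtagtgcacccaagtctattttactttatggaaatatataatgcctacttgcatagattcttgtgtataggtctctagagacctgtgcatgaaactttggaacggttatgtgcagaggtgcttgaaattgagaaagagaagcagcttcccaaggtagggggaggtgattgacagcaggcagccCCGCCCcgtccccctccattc

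None of these 5 stretches holds either hypoxia core. Col18a1 has 3 GC boxes and 1 CCAAT box, Col4a5 1 CCAAT box, Col4a6 1 GC box and Col3a1 1 TATA box, and Col6a3 has none of the motifs searched. Over the whole windows, which run from 250 bases before to 50 bases after the start, 35 of the 44 genes were matched by symbol. A palindrome of the first core would count on both strands. Either core occurred in 13 of these 35 genes (37.1%) and in 43.8% of all 32851 windows. It occurred in 2 of 8 matched genes that rose, 4 of 14 that fell and 6 of 12 that were not called in Vhl cells, the remaining matched gene being one not reported. The GC box occurred in 22 of the 35 genes (62.9%, against 35.7% of all windows), the CCAAT box in 13 (37.1%, against 37.4%) and the TATA box in 5 (14.3%, against 13.6%). A match describes letters in a window and no binding.

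In Vhl/Rassf1a cells the type I and type III chains were not called. Of the 42 genes, 7 fell and 6 rose, where 14.8% of all genes tested fell and 14.9% rose (29.7% in either direction). With a correction for GC content 8 fell and 11 rose, and without both GFP libraries that stood apart 5 fell and 11 rose. That last fit called 2 fibrillar chains that the fit of all libraries did not, Col5a1 (0.24, adjusted p = 0.000686) and Col27a1 (0.38, adjusted p = 0.00472). The medians were 0.05 over the 42 genes and 0.00 over all genes. By class, 6 of 13 other genes fell and 1 rose, 1 of 9 network genes fell and 2 rose, 2 of 9 FACIT genes rose and 1 of 11 fibrillar genes rose. Col1a1, Col1a2 and Col3a1 had fold changes of -0.07 (95% interval -0.30 to 0.17), -0.12 (-0.26 to 0.01) and 0.06 (-0.09 to 0.21), and their Cre and GFP libraries overlapped. Vhl/Rassf1a GFP replicate 2, at 15943 CPM, was far above the other GFP libraries of its group for Col1a1, at 11288 and 11807 CPM, and without it the value was 0.11 (adjusted p = 0.437).

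Col18a1 was at 140, 189 and 153 CPM with GFP and at 102, 97.3 and 120 CPM with Cre, where the Cre libraries were again the lower ones (log2 fold change -0.59, SE 0.12, adjusted p = 0.000513). Col6a3 was at 1541, 1786 and 1568 CPM and at 1164, 1118 and 1237 CPM (-0.48, SE 0.08, adjusted p = 8.33e-05). Without both GFP libraries that stood apart, these values were -0.45 (adjusted p = 0.000890) and -0.40 (adjusted p = 0.000146). Col6a1, at 917, 1102 and 971 CPM and at 827, 819 and 913 CPM, fell by less (-0.22, SE 0.07, adjusted p = 0.0159), and that call was lost without Vhl/Rassf1a GFP replicate 2 (-0.15, adjusted p = 0.0904), Cre replicate 1 (-0.20, adjusted p = 0.0604) or Cre replicate 2 (-0.20, adjusted p = 0.0736). Col6a2, at 522, 658 and 553 CPM and at 538, 514 and 576 CPM, was not called and overlapped (-0.09, SE 0.08).

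Col10a1 was at 93.7, 93.6 and 91.7 CPM with GFP and at 66.8, 67.0 and 61.4 CPM with Cre (-0.52, SE 0.07, adjusted p = 1.25e-05). In WT cells, where it was not called, Col10a1 was at 109, 89.5 and 104 CPM with GFP and at 85.0, 85.6 and 77.3 CPM with Cre. Its Cre effect was not called as different from that in WT cells, either in Vhl or in Vhl/Rassf1a cells. In Vhl/Rassf1a cells the scarce Col6a4 (-1.20, SE 0.26, adjusted p = 0.00104), Col25a1 (-1.33, SE 0.33, adjusted p = 0.00326) and Col23a1 (-0.60, SE 0.22, adjusted p = 0.0460) fell as well. Their mean levels over both groups were 0.369, 0.325 and 1.12 CPM. The call of Col23a1 rested on single libraries: it was lost without Vhl/Rassf1a GFP replicate 2 (-0.29, adjusted p = 0.395) and in each of the 3 fits without a Cre library (adjusted p from 0.0741 to 0.127).

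Among the genes that rose, Col24a1, a fibrillar collagen of developing bone and eye, was at 9.10, 9.46 and 9.71 CPM with GFP and at 17.4, 16.1 and 20.2 CPM with Cre (0.93, SE 0.10, adjusted p = 1.01e-07). Col14a1, a FACIT collagen, was at 8.08, 8.78 and 9.68 CPM and at 13.1, 12.6 and 14.5 CPM (0.60, SE 0.11, adjusted p = 0.000220). Col4a6 was at 7.51, 9.11 and 7.66 CPM and at 11.8, 11.8 and 13.0 CPM (0.59, SE 0.08, adjusted p = 7.34e-06). In these genes every Cre library exceeded every GFP library. Called genes of Vhl/Rassf1a cells were chosen by the test on these same libraries, so such separation adds no support to the calls. Col24a1 and Col14a1 also rose with Cre in WT cells, and their Cre effects were not called as different from those in WT cells.

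Col4a5 was at 211, 237 and 203 CPM with GFP and at 269, 258 and 259 CPM with Cre (0.27, SE 0.05, adjusted p = 0.000255). Xist was not called here (0.14, SE 0.18, adjusted p = 0.611). Col19a1 rose by 0.82 (SE 0.20, adjusted p = 0.00308), and Col7a1 by 0.33 (SE 0.11, adjusted p = 0.0218) with overlapping libraries. The call of Col7a1 was lost without Cre replicate 1 or 3 or GFP replicate 1 or 3 (adjusted p from 0.0537 to 0.0887) and held without GFP replicate 2 (0.48, adjusted p = 0.000578).

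The Cre effects of Vhl and Vhl/Rassf1a cells come from separate libraries. In both, 5 genes rose (Col4a5, Col4a6, Col7a1, Col19a1 and Col24a1) and 6 fell (Col6a1, Col6a3, Col6a4, Col10a1, Col18a1 and Col23a1), which is 5 of 9 and 5 of 6 of the genes that rose in each, and 6 of 16 and 6 of 7 of those that fell. Over all genes tested 10.7% rose in both, which is 61.5% of those that rose in Vhl and 72% of those that rose in Vhl/Rassf1a cells, and 10.2% fell in both, which is 54.5% and 69% of those that fell. No gene was called in opposite directions. Of the genes that rose in both, Col24a1 also rose with Cre in WT cells. Col7a1, not called in WT cells, was at 246, 257 and 288 CPM in WT GFP and at 301, 341 and 333 CPM in WT Cre. Its Cre effect was not called as different from that in WT cells, either in Vhl or in Vhl/Rassf1a cells. The difference between these effects was tested directly. The Cre effect was higher (less negative or more positive) in Vhl/Rassf1a cells for 11 of the 42 genes and lower for 0, where 3.44% of all genes tested were higher and 2.65% lower (6.09% in either direction). Col18a1 had the largest difference (1.21, SE 0.17, adjusted p = 0.000101), followed by Col15a1 (0.86, SE 0.15, adjusted p = 0.000970), Col14a1 (0.69, SE 0.15, adjusted p = 0.00611) and Col24a1 (0.68, SE 0.13, adjusted p = 0.00294).

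The others were Col5a3 (0.63), Col3a1 (0.55), Col6a2 (0.52), Col6a3 (0.49), Col6a1 (0.43), Col1a2 (0.38) and Col12a1 (0.25). These differences can lie in the GFP as well as the Cre levels. Col1a2 was at 6739 to 7265 CPM in Vhl Cre and at 6771 to 7423 CPM in Vhl/Rassf1a Cre. With GFP it was at 9750 to 10436 and at 7010 to 8626 CPM. Col12a1 was lower in Vhl/Rassf1a Cre (3291 to 3328 CPM) than in Vhl Cre (3508 to 3528 CPM). For Col18a1 the GFP libraries overlapped (138 to 210 and 140 to 189 CPM). Its Cre libraries did not (46.8 to 52.5 and 97.3 to 120 CPM). A fit of only these 4 groups left 7 of the 11, with Col1a2 (adjusted p = 0.0583), Col5a3 (adjusted p = 0.0631), Col6a1 (adjusted p = 0.0567) and Col6a3 (adjusted p = 0.0785) lost, and Col5a3 was lost without Vhl/Rassf1a Cre replicate 3 (adjusted p = 0.0501). Of the 16 genes that fell in Vhl cells, 15 had a less negative effect in Vhl/Rassf1a cells, which is a description of genes chosen for their fall. None of the 9 network genes differed by this test. The differences for Col4a5 and Col4a6 were -0.07 (SE 0.07) and 0.13 (SE 0.12).

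**Figure D4:**
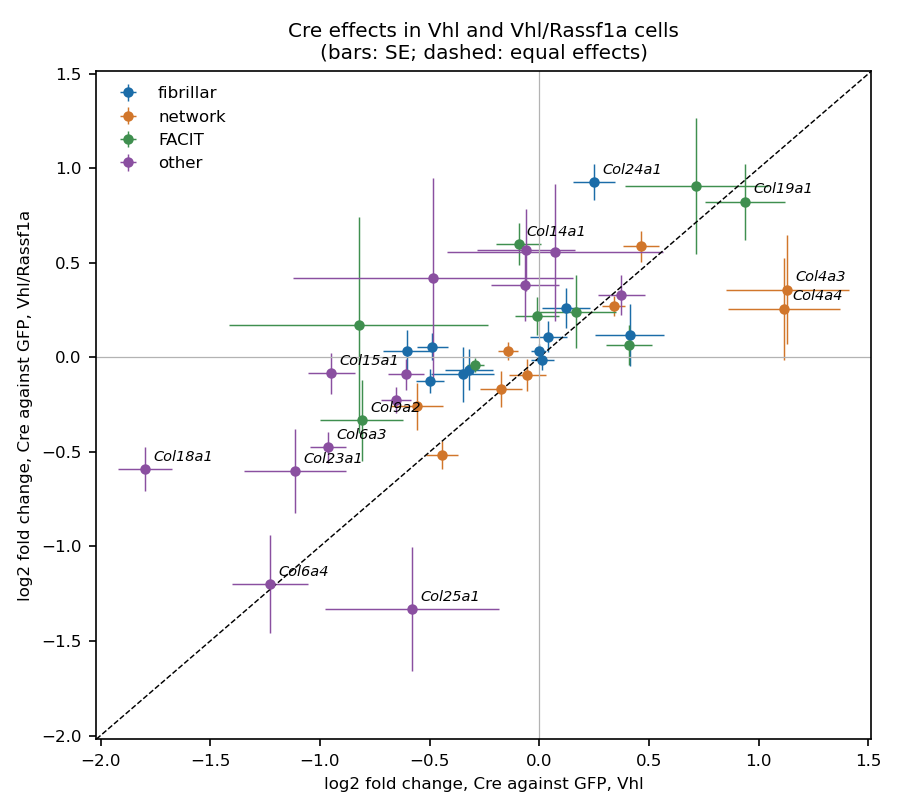
Log2 fold change of Cre against GFP in Vhl cells (horizontal) and Vhl/Rassf1a cells (vertical) for 42 collagen genes coloured by class, with bars of 1 SE and a dashed line where both effects are equal. Of the 42 points, 31 lie above the line, with Col18a1 (-1.80 and -0.59) among the farthest.

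The GFP libraries of the genotypes differed in collagen levels as well. Against WT GFP, with the same WT libraries serving all 3 comparisons, 26 of 42 genes were higher and 0 lower in Vhl GFP (17.2% and 14.9% of all genes tested, 32.1% in either direction). In Rassf1a GFP 20 were higher and 3 lower (9.39% and 6.68%, 16.1% in either direction), and in Vhl/Rassf1a GFP 11 were higher and 2 lower (6.86% and 4.68%, 11.5% in either direction). With a correction for GC content the counts were 26 higher and 3 lower, 20 and 6, and 12 and 6 in the same order. Without both GFP libraries that stood apart they were 26 and 1, 21 and 7, and 10 and 4, and Vhl/Rassf1a GFP without its replicate 2 alone had 7 higher and 3 lower. Medians over the 42 genes were 0.44, 0.32 and 0.15, against 0.01, 0.01 and 0.00 over all genes. In Vhl GFP 9 of 11 fibrillar, 7 of 9 FACIT, 5 of 9 network and 5 of 13 other genes were higher.

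For type I collagen the ordering was plain in the libraries. Col1a2 was at 7075, 7094 and 7279 CPM in WT GFP, below 9750 to 10436 CPM in Vhl GFP (0.48, SE 0.06, adjusted p = 3.03e-06) and 9127 to 10394 CPM in Rassf1a GFP (0.42, SE 0.06, adjusted p = 3.71e-05). In Vhl/Rassf1a GFP it was at 7010 to 8626 CPM and overlapped WT GFP (0.10, SE 0.06, adjusted p = 0.353). The Vhl Cre libraries, at 6739 to 7265 CPM, lay within or below the WT GFP range, so they overlapped the WT GFP libraries. For Col1a1 the higher level in Rassf1a GFP (0.39, SE 0.11, adjusted p = 0.0169) was lost without Rassf1a GFP replicate 1 (0.24, adjusted p = 0.140), WT GFP replicate 1 (0.33, adjusted p = 0.0923) or WT GFP replicate 2 (0.34, adjusted p = 0.0724).

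Col18a1 differed from this: its Vhl GFP level was above WT GFP (119 to 125 CPM) by 0.50 (SE 0.12, adjusted p = 0.00234), but its Vhl Cre level of 46.8 to 52.5 CPM was below every WT library. Col6a3 was not called between Vhl GFP and WT GFP (-0.14, SE 0.08, adjusted p = 0.215), and its Vhl Cre libraries also lay below the WT GFP libraries, at 1549 to 1571 CPM.

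The largest departure in Vhl GFP was that of Col14a1, at 32.5, 30.3 and 30.2 CPM against 4.98, 6.29 and 4.13 CPM in WT GFP (log2 fold change 2.59, SE 0.12, adjusted p = 1.03e-13). Col14a1 was also higher in Rassf1a GFP (0.60, SE 0.12) and Vhl/Rassf1a GFP (0.78, SE 0.12), each called against the same WT libraries. In Rassf1a GFP the largest was Col5a3, at 227, 194 and 199 CPM against 75.1, 77.8 and 75.8 CPM (1.44, SE 0.11, adjusted p = 2.55e-09). In Vhl/Rassf1a GFP it was Col8a2, a short-chain network collagen, at 7.06, 7.22 and 6.93 CPM against 3.48, 3.70 and 3.76 CPM (0.96, SE 0.13, adjusted p = 1.57e-05). No GFP library of the genotype concerned overlapped a WT GFP library in these 3 cases. They were named by size among called genes with a mean of at least 5 CPM. The choice used these same libraries, so the lack of overlap adds no support to the calls.

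Col2a1, the fibrillar collagen of cartilage, separated the genotypes in opposite directions: it was at 317, 274 and 363 CPM in WT GFP, 629, 750 and 606 CPM in Vhl GFP (1.06, SE 0.15, adjusted p = 5.36e-06) and 178, 137 and 117 CPM in Rassf1a GFP (-1.14, SE 0.15, adjusted p = 4.92e-06). With Cre in Vhl cells its value was -0.35 (SE 0.14, adjusted p = 0.0633), with no overlap of libraries. Col9a2 and Col9a3, cartilage FACIT chains, were higher in Vhl GFP by 2.07 (SE 0.22) and 0.97 (SE 0.20), at means of 1.91 and 2.46 CPM.

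Col6a4 was lower in both genotypes that carry the Rassf1a alteration, at 0.407, 0.318 and 0.427 CPM in Rassf1a GFP and 0.419, 0.536 and 0.583 CPM in Vhl/Rassf1a GFP against 2.14, 1.70 and 2.32 CPM in WT GFP (-2.40, SE 0.20, adjusted p = 6.00e-09, and -1.98, SE 0.19, adjusted p = 5.43e-08). In Vhl GFP it was at 1.60 to 2.14 CPM and not called (-0.12, SE 0.16). Col6a4 lies 1.45 Mb from Rassf1 on chromosome 9, with Col6a5 at 1.59 Mb, Col6a6 at 1.72 Mb and Col7a1 at 1.39 Mb. Col6a6 was at 0 to 0.0672 CPM in WT GFP and 0.292 to 0.379 CPM in Rassf1a GFP (adjusted p = 0.000531), levels too near 0 for a fold. Col7a1 was not called in any comparison of GFP libraries.

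**Figure D5:**
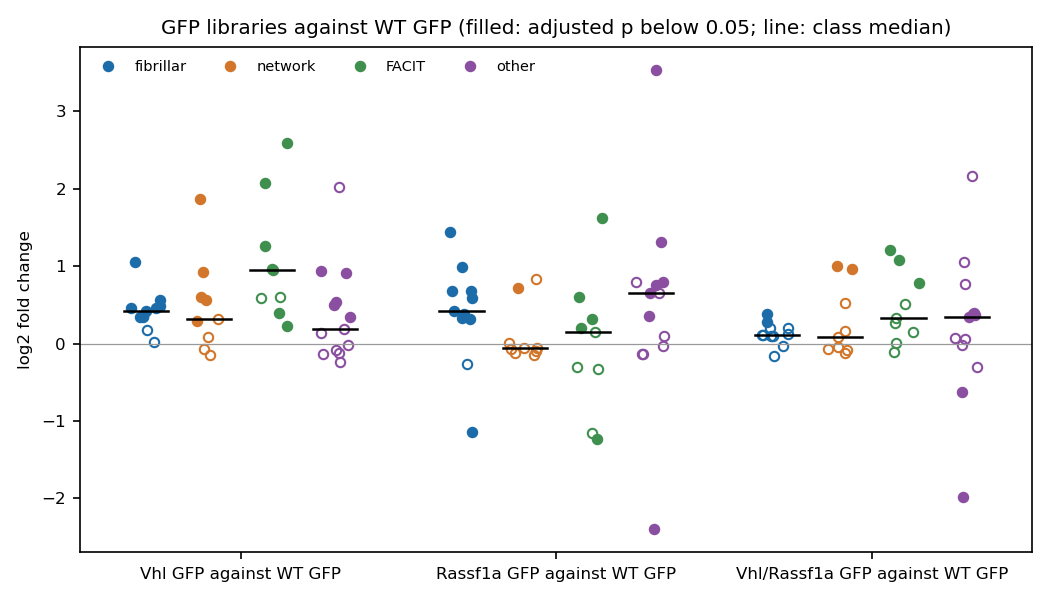
Log2 fold change of GFP libraries of each altered genotype against WT GFP for 42 collagen genes by class, filled where the adjusted p was below 0.05, with the class median as a line. The 3 comparisons share the WT GFP libraries, and the medians over all 42 genes were 0.44, 0.32 and 0.15.

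Other genes marked differences between the genotypes' GFP libraries as well. Xist averaged 155 CPM in WT GFP and 262, 265 and 290 CPM in Vhl, Rassf1a and Vhl/Rassf1a GFP, and Ddx3y 50.8, 41.0, 23.7 and 16.5 CPM in the same order. Markers of cell types were counted as well. Over all genes tested, 17.2% were higher and 14.9% lower in Vhl GFP. The shares were 9.39% and 6.68% in Rassf1a GFP and 6.86% and 4.68% in Vhl/Rassf1a GFP. Against WT GFP, 6 of 8 tested cartilage markers were higher in Vhl GFP (sums of 60.5 to 65.8 against 42.3 to 43.5 CPM), 2 were higher and 1 lower in Rassf1a GFP (40.5 to 44.6 CPM), and 4 were higher and 1 lower in Vhl/Rassf1a GFP (49.0 to 53.2 CPM). Of 7 tested bone markers 3 were higher in Vhl GFP (1172 to 1481 against 664 to 800.5 CPM), 1 was higher and 2 lower in Rassf1a GFP (868 to 1148 CPM), and 2 were higher and 1 lower in Vhl/Rassf1a GFP (472 to 597 CPM). Of 9 tested smooth muscle markers 8, 7 and 5 were lower in the same order of genotypes, with sums of 4865 to 5301, 5581 to 6523 and 6298 to 7314 CPM against 6843 to 7448 CPM. Fibroblast markers summed to 30134 to 30832 CPM in Vhl GFP, above the 20669 to 21525 CPM of WT GFP, with 5 of 12 higher and 3 lower, while 7 of 12 were higher in Rassf1a GFP and 0 were called in Vhl/Rassf1a GFP. The part of these cells in the collagen values was not tested.

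Genotype and the embryos or cultures behind it cannot be told apart in these comparisons.

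In WT cells, where no gene is named as altered, 4 of 42 collagen genes rose with Cre and 0 fell, where 0.833% of all genes tested rose and 0.428% fell (1.26% in either direction). The median over the 42 genes was 0.16, against -0.00 over all genes, and 36 of 42 values were positive. DESeq2 gave 6 higher and 1 lower gene, a correction for GC content 8 and 1, and the fit without both GFP libraries that stood apart, neither of them from WT cells, 7 and 1. Col24a1 was at 8.13, 10.2 and 7.90 CPM with GFP and at 13.8, 15.0 and 13.7 CPM with Cre (0.69, SE 0.10, adjusted p = 0.000431). Col8a2 was at 3.48, 3.70 and 3.76 CPM and at 5.54, 6.37 and 5.07 CPM (0.64, SE 0.13, adjusted p = 0.0140). Col14a1 was at 4.98, 6.29 and 4.13 CPM and at 7.22, 8.25 and 8.36 CPM (0.62, SE 0.12, adjusted p = 0.00780).

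Col11a1, a chain of the thin fibrils of cartilage and of mixed type V and XI fibrils, was at 298, 294 and 281 CPM and at 329, 326 and 324 CPM (0.17, SE 0.03, adjusted p = 0.0134). In all of these genes the Cre libraries were above the GFP libraries. The genes were chosen by the test on these libraries, which adds no support to the calls. The calls depended on single libraries: Col8a2 was lost without GFP replicate 1 or 3 or Cre replicate 2, Col14a1 without GFP replicate 1 or 3 or Cre replicate 3, and Col11a1 without GFP replicate 3 or any Cre replicate, with adjusted p-values of 0.0511 to 0.143. Counts of 1 or 2 called genes were left without GFP replicate 3 (1), GFP replicate 1, Cre replicate 2 or Cre replicate 3 (2 each).

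Against this Cre effect in WT cells, the Cre effect in Vhl cells was lower for 17 collagen genes and higher for 4, where 12.5% and 10.7% of all genes tested were (23.2% in either direction). The median difference was -0.30, against -0.01 over all genes. Col18a1 differed by -1.94 (SE 0.17, adjusted p = 1.28e-08), Col15a1 by -1.36 (SE 0.15, adjusted p = 5.57e-07), Col8a2 by -1.20 (SE 0.18, adjusted p = 2.31e-05) and Col6a3 by -1.07 (SE 0.11, adjusted p = 2.55e-07). Col4a5 (0.26), Col4a6 (0.37), Col19a1 (0.94) and Col4a3 (1.35) were higher. Those of Col4a6, Col19a1 and Col4a3 were each lost without one of several single libraries, with adjusted p-values up to 0.0785, 0.0918 and 0.157, and that of Col1a1 (-0.44, adjusted p = 0.0452) without any of 9 of the 12 libraries (adjusted p up to 0.117).

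In Vhl/Rassf1a cells the same difference was lower for 7 genes and higher for 1, where 7.40% and 7.41% of all genes tested were (14.8% in either direction), and with a correction for GC content lower for 12 and higher for 4. Col8a2 (-0.90, SE 0.18, adjusted p = 0.00142), Col18a1 (-0.73, SE 0.17, adjusted p = 0.00382) and Col6a3 (-0.58, SE 0.11, adjusted p = 0.000956) were among the lower ones, and Col4a6 (0.50, SE 0.12, adjusted p = 0.00554) was the higher one. No fibrillar or FACIT gene was called in it. Col8a2 itself was not called between Cre and GFP in Vhl/Rassf1a cells, and its rise with Cre in WT cells enters the difference. Both differences use the WT libraries.

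With Cre in Rassf1a cells no collagen gene rose or fell by edgeR's test or by DESeq2, where 0.187% of all genes tested rose and 0.205% fell (0.392% in either direction), and 5 of 42 had an unadjusted p under 0.05. With a correction for GC content 2 were higher, and with no filter on low counts 1 was. Col18a1 was at 235, 197 and 191 CPM with GFP and at 215, 222 and 215 CPM with Cre (0.07, 95% interval -0.18 to 0.32). Col1a2 was at 10394, 9127 and 9268 CPM and at 9527, 9371 and 9491 CPM (-0.02, 95% interval -0.15 to 0.11). The groups overlapped in both genes. Against the Cre effect in WT cells 0 genes differed in either direction by edgeR's test or by DESeq2 (0.00603% and 0% of all genes tested), and 6 had an unadjusted p under 0.05.

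The Cre effect in Vhl/Rassf1a cells was higher than that in Rassf1a cells for 3 genes and lower for 5, where 7.95% and 7.10% of all genes tested were (15.0% in either direction), and with a correction for GC content higher for 4 and lower for 10. The higher ones were Col24a1 (0.65, SE 0.13, adjusted p = 0.00144), Col4a6 (0.43, SE 0.12, adjusted p = 0.0152) and Col4a5 (0.23, SE 0.07, adjusted p = 0.0372). The lower ones included Col18a1 (-0.66, SE 0.17, adjusted p = 0.00854), Col10a1 (-0.52, SE 0.11, adjusted p = 0.00128) and Col6a3 (-0.46, SE 0.11, adjusted p = 0.00755). The call of Col4a5 was lost in 10 of the 12 fits without 1 library (adjusted p from 0.0512 to 0.101).

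Ratios between chains were compared per length. Among chains that can share a molecule, the ratio of Col6a3 to Col6a1 was 0.584 (SD 0.0470) in Vhl GFP and 0.474 (SD 0.0231) in Vhl Cre, and 0.665 (SD 0.0145) and 0.558 (SD 0.0113) in Vhl/Rassf1a cells (n = 3 each). The ratio of Col1a1 to Col1a2 was 1.44 (SD 0.0113) in Vhl GFP and 1.63 (SD 0.0750) in Vhl Cre. It was 1.52 (SD 0.130) and 1.59 (SD 0.0145) in Vhl/Rassf1a cells, where the libraries overlapped. That overlap rested on GFP replicate 2, at 1.67. GFP replicates 1 and 3 were at 1.45 and 1.43, below the Cre libraries at 1.58 to 1.60. The ratios of Col6a1 to Col6a2 (1.48 and 1.43) and of Col4a5 to Col4a6 (28.0 and 25.7) overlapped between Vhl GFP and Vhl Cre. In Vhl/Rassf1a cells neither overlapped (1.67 and 1.51, and 27.3 and 21.9). In WT cells that of Col6a1 to Col6a2 did not overlap (1.68 and 1.62). The ratio of Col4a1 to Col4a2 did not overlap in Vhl (1.32 and 1.44) or in Vhl/Rassf1a cells (1.44 and 1.51). Of chains counted here as different molecules, that of Col5a1 to Col1a1 was 0.165 (SD 0.00207) and 0.212 (SD 0.00484) in Vhl cells, 0.172 (SD 0.00716) and 0.193 (SD 0.00309) in Vhl/Rassf1a cells, and 0.167 (SD 0.00693) and 0.180 (SD 0.00239) in Rassf1a cells.

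Col4a5 to Col4a1 went from 0.116 (SD 0.00125) to 0.153 (SD 0.00499) in Vhl cells and from 0.0969 (SD 0.00689) to 0.124 (SD 0.00329) in Vhl/Rassf1a cells. Cre and GFP libraries did not overlap in the ratios given here with an SD, other than that of Col1a1 to Col1a2 in Vhl/Rassf1a cells, and the exact two-sided permutation test of 3 against 3 cannot go below 0.1. In WT cells the ratios of Col1a1 to Col1a2 (1.51 and 1.52), Col5a1 to Col1a1 (0.173 and 0.172) and Col4a5 to Col4a1 (0.0990 and 0.0973) overlapped between GFP and Cre, whereas that of Col6a3 to Col6a1 did not (0.822 and 0.794).

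The enzymes that act on collagen chains were taken as lists. Their counts stand beside shares over all genes tested of 17.4% that rose and 18.7% that fell with Cre in Vhl cells, 14.9% and 14.8% in Vhl/Rassf1a cells, 0.833% and 0.428% in WT cells, and 0.187% and 0.205% in Rassf1a cells. Of 21 genes of chain modification and folding, 10 rose and 3 fell with Cre in Vhl cells, 9 rose and 3 fell in Vhl/Rassf1a cells, and 0 were called in WT or in Rassf1a cells. Their medians were 0.14 in Vhl and 0.12 in Vhl/Rassf1a cells. P4ha2, a catalytic subunit of prolyl hydroxylase, went from 227 CPM to 738 CPM in Vhl cells (1.70, SE 0.06, adjusted p = 1.35e-16) and from 187 CPM to 553 CPM in Vhl/Rassf1a cells (1.56, SE 0.05, adjusted p = 6.63e-16). Plod2 and Plod1, which hydroxylate lysine, rose by 1.75 and 1.14 in Vhl cells and by 1.79 and 1.13 in Vhl/Rassf1a cells, and P4ha1 by 0.70 and 0.65. These are opposite in direction to the type I and type VI chains in Vhl cells.

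Of 17 genes of export, trimming and cross-linking, 8 rose and 7 fell in Vhl cells (median 0.01), 4 and 4 in Vhl/Rassf1a cells (median 0.09), and 2 rose and 0 fell in WT cells. Loxl2, a lysyl oxidase that cross-links chains, rose from 468 CPM (SD 22.7) to 1121 CPM (SD 11.1) in Vhl cells (1.26, SE 0.07, adjusted p = 2.80e-12) and by 1.24 (SE 0.07) in Vhl/Rassf1a cells. It also rose in WT cells, by 0.39 (SE 0.07, adjusted p = 0.00410). The propeptidases Adamts14 (-0.99, SE 0.10) and Adamts2 (-0.62, SE 0.08), which trim the ends of fibrillar chains, fell in Vhl cells, and Tll1, another trimming protease, rose there (0.63, SE 0.06).

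The lists of receptors and of breakdown are short, and their counts in Vhl and Vhl/Rassf1a cells are no result about these lists. Of 10 collagen receptors 8 were tested. In Vhl cells 3 rose and 1 fell, and in Vhl/Rassf1a cells 2 rose. The integrin subunit Itga2 rose in both (0.92, SE 0.10, and 0.60, SE 0.09), and the receptor kinase Ddr2 fell in Vhl cells (-0.28, SE 0.07). Of 14 genes of collagen breakdown 13 were tested, of which 3 rose and 2 fell in Vhl cells, 3 rose and 1 fell in Vhl/Rassf1a cells, 3 rose in WT cells and 1 rose in Rassf1a cells. Mmp2, a gelatinase, fell from 610 CPM (SD 31.7) to 371 CPM (SD 14.3) in Vhl cells (-0.72, SE 0.06, adjusted p = 9.41e-10) and by 0.41 on the log2 scale in Vhl/Rassf1a cells. Timp3, an inhibitor of such proteases, rose in Vhl (0.56), Vhl/Rassf1a (1.13) and WT cells (0.30).

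Markers of other cell types were counted in the same comparisons, where 17.4% of all genes tested rose and 18.7% fell in Vhl cells and 14.9% rose and 14.8% fell in Vhl/Rassf1a cells. With Cre in Vhl cells 4 of 8 tested cartilage markers fell and 0 rose, with a sum over the 12 markers of 45.8 to 49.5 CPM against 60.5 to 65.8 CPM with GFP, and Comp fell most clearly (-1.53, SE 0.15). Of 7 tested bone markers 3 fell and 0 rose, with a sum of 534 to 559 CPM against 1172 to 1481 CPM, mostly Spp1. Of the 12 fibroblast markers 4 fell and 0 rose, among them Pdgfrb (-0.62, SE 0.06) and Pdgfra (-0.54, SE 0.09). In Vhl/Rassf1a cells 3 cartilage markers (sums of 41.1 to 41.5 against 49.0 to 53.2 CPM), 1 bone marker (426 to 486 against 472 to 597 CPM) and 1 fibroblast marker fell, and 2 fibroblast markers rose.

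Of the epithelial markers 5 of 5 tested rose in Vhl cells (sums of 126 to 147 against 37.9 to 39.0 CPM over 10 markers) and 3 of 5 rose in Vhl/Rassf1a cells (194 to 201 against 75.6 to 97.2 CPM). Of 8 tested endothelial markers 5 rose and 1 fell in Vhl cells (130 to 136 against 86.3 to 99.3 CPM) and 4 rose and 1 fell in Vhl/Rassf1a cells (156 to 163 against 119 to 130 CPM). Smooth muscle markers rose in 4 of 9 and 2 of 9, skeletal muscle markers in 2 of 4 and 2 of 4, macrophage markers in 1 of 5 and 1 of 5, and Schwann and neural markers in 3 of 8 and 5 of 8 tested genes, with 1 neural marker falling in each genotype. None of the marker genes was at 0 in every library, while 6 of 10 epithelial and 4 of 10 endothelial markers stayed under 1 CPM in every library. The part of such cells in the collagen values was not tested.

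By likeness of pattern over the 8 group means of log2(CPM + 1), the genes closest to Col18a1 among all genes tested were ENSMUSG00000099697, which has no symbol in use here, Mycbp2 and Olfml3, with Pearson correlations of 0.990, 0.986 and 0.983. Olfml3, a secreted matrix protein, averaged 59.4 CPM in WT GFP, 73.1 CPM in Vhl GFP, 69.0 CPM in Vhl/Rassf1a GFP and 45.2 CPM in Vhl/Rassf1a Cre, and was lowest in Vhl Cre, with a Cre effect of -1.55 in Vhl cells. The ranges of the other 2 were narrower, with Mycbp2 between 120 and 145 CPM in all groups. The 8 means share libraries and depth and are a description, not a test.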

How the data were processed

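RNA of 24 mouse fibroblast libraries was isolated with a NucleoSpin RNA kit and made into stranded TruSeq libraries, per the labels' protocols. Trimmomatic 0.38, STAR 2.5.2b and the build GRCm38 are named in the submitters' processing notes. No source used here states how reads were assigned to genes, or whether by strand. The authors deposited raw counts per Ensembl gene, which were used unchanged.

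Genes kept by filterByExpr (minimum count 10, minimum total 15; 16573 genes) were fitted with edgeR 4.0.16 in R 4.3.3, with TMM scaling, 1 mean per group and quasi-likelihood tests. Tests were two-sided, with Benjamini-Hochberg adjustment over all genes within each of 12 comparisons and a threshold of 0.05. RPKM used the length of the transcript with the longest coding sequence. Alternatives were DESeq2 1.42.0, other scalings, filters, fits and omitted libraries.

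Values in every library are given for the 3 largest called changes in each direction with a mean of at least 5 CPM, and for the 3 highest genes of each class; others singled out were chosen after their values were seen. The members, lists and tests were chosen with earlier results of these data known. The 13 lists are 4 of the collagen pathway and 9 of cell type markers.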

Additional observations from a re-analysis of the deposited data

Results flagged for a closer look

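Differences between Cre effects, tested directly by edgeR, were present in 4 of the comparisons between genotypes, and each uses the libraries of 4 groups. Between Vhl and WT cells 21 collagen genes differed, among them Col18a1 (-1.94), Col15a1 (-1.36) and Col8a2 (-1.20) as lower and Col4a5 (0.26) and Col4a6 (0.37) as higher in Vhl cells. Between Vhl/Rassf1a and WT cells 8 differed, among them Col8a2 (-0.90), Col18a1 (-0.73), Col6a3 (-0.58) and Col4a6 (0.50). The Cre effects of Col18a1 and Col8a2 were thus lower than those in WT cells in both. Col8a2 itself was not called with Cre in Vhl/Rassf1a cells and rose with Cre in WT cells.

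Between Vhl/Rassf1a and Vhl cells 11 differed, all with a higher Cre effect in Vhl/Rassf1a cells, among them Col18a1 (1.21), Col15a1 (0.86) and Col14a1 (0.69). Between Vhl/Rassf1a and Rassf1a cells 8 differed, among them Col18a1 (-0.66), Col10a1 (-0.52), Col6a3 (-0.46), Col4a5 (0.23), Col4a6 (0.43) and Col24a1 (0.65). All values are differences of log2 fold changes, and comparisons that share a genotype share its libraries. Groups of 3 libraries are too small for a test of single outlying libraries.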

How the results depend on the processing

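No call of a collagen gene reversed under any alternative. Values that were not called could change sign, as that of Col1a1 did in Vhl/Rassf1a cells without GFP replicate 2. Of the values for single genes 7962 kept their side of the threshold, 155 passed it and 175 lost it. With a minimum change of 2-fold the counts of called genes were 0 (WT Cre), 5 (Vhl Cre), 2 (Vhl/Rassf1a Cre), 8 (Vhl minus WT), 2 (Vhl/Rassf1a minus WT), 1 (Vhl/Rassf1a minus Vhl), 2 (Vhl/Rassf1a minus Rassf1a), 5 (Vhl GFP), 7 (Rassf1a GFP) and 4 (Vhl/Rassf1a GFP). In WT cells the count of 4 became 7 with DESeq2, 9 with a correction for GC content, 8 with no filter and 8 without both GFP libraries that stood apart. In Rassf1a cells 0 became 2 with the GC correction and 1 with no filter. The GC correction gave 16 for Vhl/Rassf1a minus WT and 14 for Vhl/Rassf1a minus Rassf1a, and a fit of only the groups compared gave 7 for Vhl/Rassf1a minus Vhl and 7 for Vhl/Rassf1a GFP. The cause was not tested.

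Without 1 library at a time, counts ran from 1 to 6 (WT Cre), 21 to 23 (Vhl Cre), 0 to 0 (Rassf1a Cre), 11 to 15 (Vhl/Rassf1a Cre), 16 to 20 (Vhl minus WT), 0 to 0 (Rassf1a minus WT), 7 to 10 (Vhl/Rassf1a minus WT), 10 to 13 (Vhl/Rassf1a minus Vhl), 6 to 9 (Vhl/Rassf1a minus Rassf1a), 25 to 27 (Vhl GFP), 21 to 23 (Rassf1a GFP) and 9 to 13 (Vhl/Rassf1a GFP). With the replicate number as a block, 4, 24, 0 and 13 genes were called with Cre in WT, Vhl, Rassf1a and Vhl/Rassf1a cells. The numbers showed no pairing: correlations of deviations between same-numbered Cre and GFP libraries ran from -0.0916 to 0.0346 over 12 pairs, and 5 pairs correlated best with their own number. Genes with few counts, such as Col4a3, Col6a5 and Col6a6, have wide errors at this depth.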
